A study of Mus musculus with 4 samples.

Results

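The integrin and laminin subunits were the genes whose names on the array were those of an integrin alpha chain (Itga), an integrin beta chain (Itgb) or a laminin alpha, beta or gamma chain (Lama, Lamb and Lamc). These names took 51 of the 55681 probes other than control spots, for 37 of 34844 gene names: 26 integrin genes with 38 probes and 11 laminin genes with 13 probes. They were followed in cardiac mesenchymal progenitors (CMPs), which are Sca-1+ cells from the heart of adult C57BL/6 mice. The CMP control was untreated (day 0), and OSKM-CMPs carried Oct4, Sox2, Klf4 and c-Myc from Sendai virus and were taken at days 4, 6 and 8, with 1 array for each of the 4 conditions. The labels give collagen I-coated dishes and a medium with serum and bFGF for all samples, whereas the methods of the study put transduced CMPs on Geltrex, a basement membrane extract rich in laminin, and then in reprogramming medium without leukemia inhibitory factor. Untreated cells were taken at 1 time point only, and the factors, the virus, the medium, the coating where it was changed, and the time in culture cannot be told apart.

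Integrins are the receptors by which cells hold on to their matrix, and each is a pair of an alpha and a beta chain. The alpha chain largely sets the ligand (collagens, laminins, or proteins with an RGD sequence such as fibronectin and vitronectin), while the tail of the beta chain binds talin and kindlin and so ties the matrix to actin. Laminins are trimers of an alpha, a beta and a gamma chain and form the basement membrane together with type IV collagen, nidogen and perlecan. Fibroblast-like progenitors usually lie in interstitial collagen, whereas muscle cells and mature fat cells are wrapped in a basement membrane, and a shift from Itga5 to Itga6 has been described when cultured preadipocytes become fat cells.

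The label of the cells was set against their markers. Ly6a, which encodes Sca-1, had a normalised signal of 10025 in the control and 41075, 49688 and 64899 on days 4, 6 and 8, and all 8 mesenchymal progenitor markers were well above background on all 4 arrays. At day 8, 2 of these were higher than the control (Ly6a and Nt5e) and 2 were lower (Thy1, -1.78 ± 0.20, and Eng, -1.19 ± 0.20), with a median change of -0.01. Over all genes, 11.7% were higher and 9.29% lower. A normalised signal is the processed spot intensity after each array was scaled to the same 75th percentile, 399. It allows one probe to be compared between arrays, not one gene with another. On each array, 56.6% to 59.6% of the probes passed the well-above-background flag, no spot was saturated, and all arrays lay on 1 slide and were read in 1 scan. With 1 array per condition no test between conditions was possible, so changes are descriptions of these arrays. A change is a log2 difference from the control array, with an error (±, 1 SD) from the error model of the scanner software, which covers neither cultures nor RNA preparation. A change of at least 2-fold is called higher or lower. A probe not well above background is dim, and gives only a bound. This was set at the lowest signal that passed on that array (a normalised signal between 8.37 and 11.0), or at the probe's measured signal where that was higher. These were bulk RNA samples, so fewer cells of a type and less RNA per cell cannot be told apart.

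Of the subunit genes, 35 had a probe well above background on at least 1 array. Itgae and Itgax were dim on all 4. At day 4, 6 of 24 measured integrin genes were higher than the control and 8 were lower, beside 8.85% and 7.04% of all 23568 genes measured. At day 6, 5 of 22 were higher and 9 lower (10.0% and 9.73% of all genes), and at day 8, 5 were higher and 7 lower (11.7% and 9.29%). Of the 11 laminin genes, 3 were higher and 1 lower at day 4, 3 and 2 at day 6, and 3 and 2 at day 8. The median change at day 8 was -0.71 for integrin genes and -0.07 for laminin genes, beside -0.01 for all genes, whose quartiles were -0.43 and 0.49. The 3 comparisons share the control array and are not independent of one another.

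**Figure D1:**
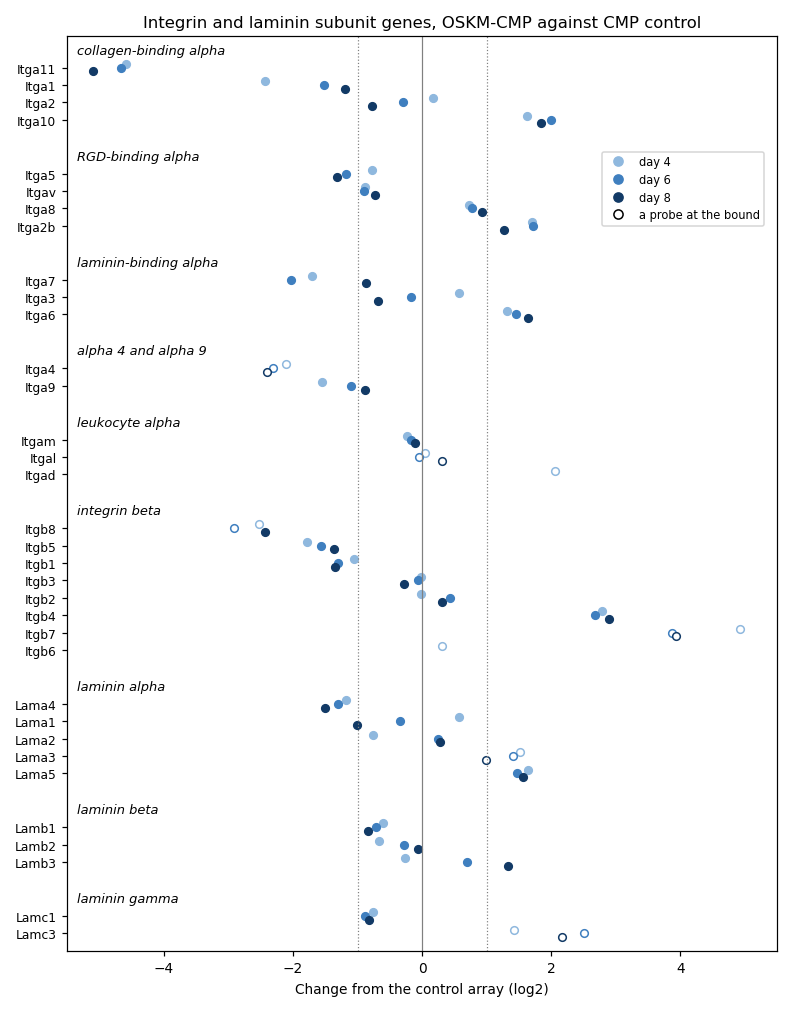
Change of the subunit genes from the control array (log2, horizontal axis) at days 4, 6 and 8, grouped by role. Open circles hold at least 1 probe at the background bound, and dotted lines mark 2-fold. Itga11 lies farthest to the left, at -5.09 at day 8, and Itgb7 farthest to the right, while most genes have their 3 days close together.

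**Figure D2:**
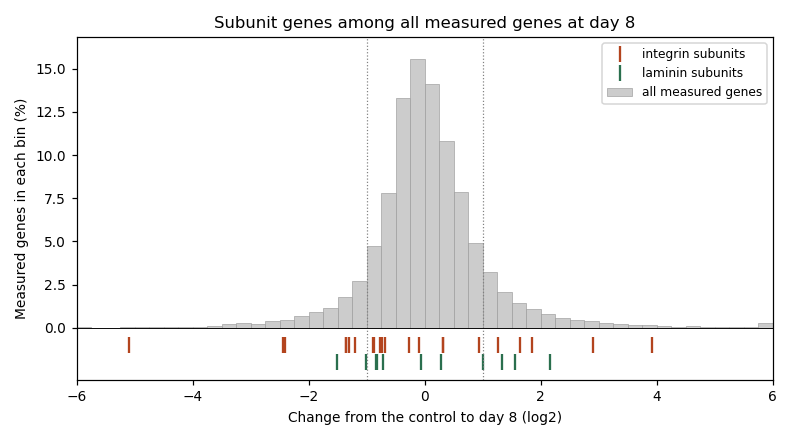
Histogram of the change from the control to day 8 (log2) for all measured genes, in percent of genes per bin, with 1 tick below it for each integrin (upper row) and laminin (lower row) gene. Changes beyond the axis are counted in the outermost bins. The integrin ticks reach from -5.09 to 3.93, and the quartiles of all genes are -0.43 and 0.49.

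The alpha chains that bind collagen moved apart. Itga11, the receptor chain for fibrillar collagen on fibroblasts (probe at chr9:62631667-62631726, mm9), had a normalised signal of 24861 in the control and 1039, 977 and 728 on days 4, 6 and 8. The control was thus the single high array, and the change at day 8 was -5.09 ± 0.20, or 34.2-fold lower, with 89.9% of it present at day 4 on the log2 scale. Itga1, which prefers basement membrane collagen, was at 256, 47.4, 89.3 and 112 in the same order, and 2.29-fold lower at day 8 (-1.19 ± 0.15), or -0.94, within 2-fold, with normexp and quantile normalization. Its probes differed at day 8, with -1.46 for the brighter and -0.93, within 2-fold, for the other. Itga1 was lowest at day 4 and 2.36-fold higher at day 8 than at day 4. Itga10, a collagen receptor chain known from cartilage, was at 144, 444, 575 and 515. All OSKM-CMP arrays were above the control, by 3.59-fold at day 8 (1.84 ± 0.15), and both of its probes, whose target sites overlap (chr3:96468377-96468436 and chr3:96468383-96468442, mm9), gave it, with 1.83 and 1.85. Itga2, the collagen receptor chain of platelets and epithelia, stayed within 2-fold of the control, at 26.5, 29.8, 21.7 and 15.4.

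Among the alpha chains that bind laminin, Itga6 was higher and Itga7 and Itga3 were not. Itga6 had a normalised signal of 3205 in the control and 7975, 8780 and 9990 on days 4, 6 and 8, a change of 1.64 ± 0.14 or 3.12-fold. Its probes lie at chr2:71690633-71690692 and chr2:71694756-71694815 (mm9) and gave 1.83 and 1.45. Itgb4, the beta chain that pairs with Itga6 alone and anchors epithelial cells at hemidesmosomes (probe at chr11:115869666-115869725, mm9), was at 211, 1457, 1355 and 1569, which was 7.44-fold higher at day 8 (2.90 ± 0.20). Both chains of the alpha 6 beta 4 pair were therefore at least 2-fold higher on every OSKM-CMP array, the single pair of the 24 examined in which both chains were called higher at day 8. Itga7, the laminin receptor chain of muscle, was at 1546, 477, 377 and 844: 4.11-fold lower at day 6, and within 2-fold of the control at day 8 (-0.87 ± 0.20). Itga3, the laminin-332 receptor chain of epithelia, was at 93.6, 140, 82.7 and 58.5, within 2-fold of the control on each day and 2.39-fold lower at day 8 than at day 4.

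Markers of epithelial cells did not all move with Itgb4. Of 8 such markers, 7 were well above background on at least 1 array, and Epcam was dim on all 4. At day 8, 4 of the 7 were at least 2-fold higher and none was lower (11.7% and 9.29% over all genes), with a median change of 2.75. Krt18 (-0.77 ± 0.21), Krt5 (0.24 ± 0.25) and Cldn4 (-0.02 ± 0.23) stayed within 2-fold at day 8. The summed normalised signal of the 7 was 961 in the control and 5453, 6384 and 6041 on days 4, 6 and 8. This sum was mostly Krt19 (627 and 4214 in the control and at day 8). Krt8 and Cdh1, which encode a keratin and E-cadherin, were dim on the control array, and Krt8 stood at 829, 528 and 768 afterwards. Krt14, another keratin, was at 24.2 in the control and 1010, 558 and 731 on days 4, 6 and 8 (4.92 ± 0.24 at day 8). The part of these cells or transcripts in the Itgb4, Itga6 and laminin values was not tested.

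**Figure D3:**
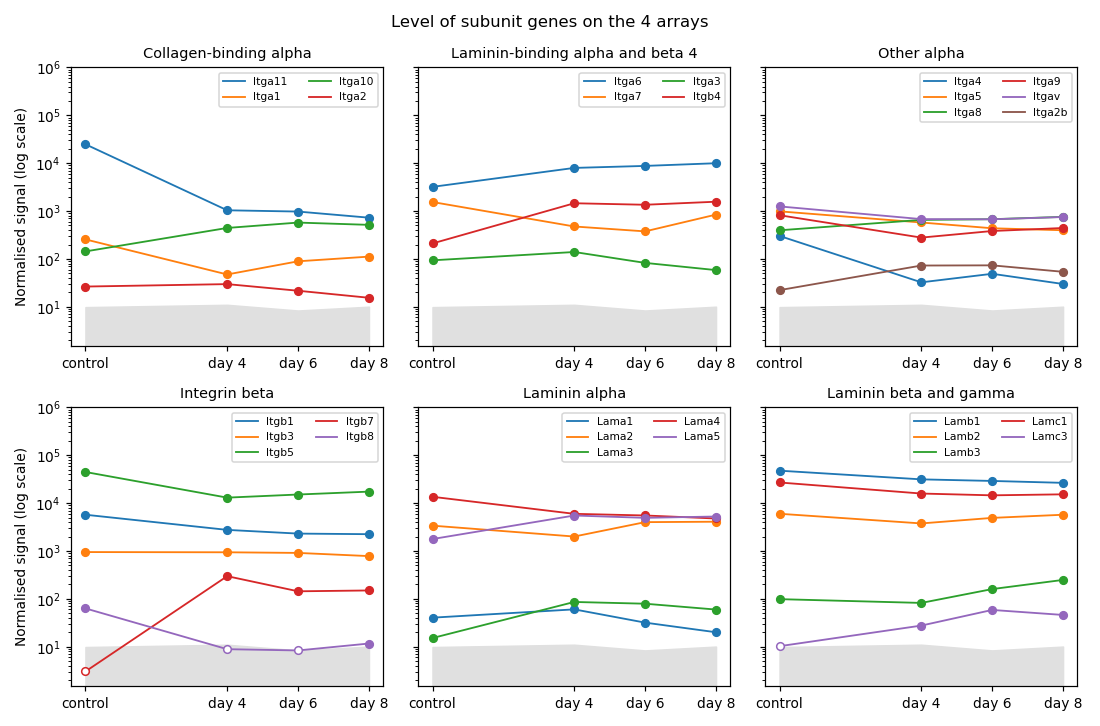
Normalised signal (log axis) of the subunit genes on the 4 arrays, in 6 panels by role, with open circles for dim values and grey for the range below the lowest signal that passed on each array. Levels of different genes are not comparable. Itga11, Itgb8 and Lama4 are highest on the control array, and Itgb4, Itga6 and Lama5 are lowest there.

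Of the 4 alpha chains that bind RGD ligands, 1 was lower at day 8 (Itga5), 1 was higher (Itga2b, described below) and 2 stayed within 2-fold. Itga5, the main fibronectin receptor chain, was at 987, 577, 437 and 398, a change at day 8 of -1.31 ± 0.20 or 2.48-fold lower. Itgav, the shared alpha chain of the vitronectin receptors, was at 1251, 679, 674 and 751, within 2-fold on each day. Itga8, a nephronectin receptor chain of mesenchymal and smooth muscle cells, was at 397, 654, 676 and 757 and also stayed within 2-fold (0.93 ± 0.20).

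The beta partners of Itgav differed. Itgb5, a vitronectin receptor chain, was at 44642 in the control and 13013, 15116 and 17372 on days 4, 6 and 8, so that it was lowest at day 4 and 2.57-fold lower than the control at day 8 (-1.36 ± 0.20). Itgb8, whose pair with Itgav releases active TGF-beta, was at 63.1 on the control array, dim at days 4 and 6, and 11.7 at day 8. It was at least 5.73-fold lower at day 4 and 5.42-fold lower at day 8, but under normexp background correction with quantile normalization the change at day 8 was -0.89, within 2-fold. Itgb3 differed by probe: one was at 191 on the control array and 112 at day 8 (-0.77), the other at 4725 and 5465 (0.21), and their mean stayed within 2-fold. Itgb6, an epithelial chain of the same group, was well above background at day 4 alone, and then at least 1.24-fold over the control.

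Itga2b, the fibrinogen receptor chain of platelets, was at 22.3, 72.8, 73.5 and 53.9, a change at day 8 of 1.27 ± 0.28, which became 0.39, within 2-fold, with normexp and quantile normalization. Of 4 megakaryocyte and platelet markers, Gp1ba, Gp9 and Ppbp were dim on all 4 arrays, and Pf4 was at 3944 on the control array and 231 at day 8.

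Itga4 and Itgb7 form a receptor for Vcam1 and Madcam1 on lymphocytes, and Itga4 also pairs with Itgb1. They moved in opposite directions. The brighter probe of Itga4 (chr2:79173193-79173252, mm9) gave 2538 in the control and 445, 443 and 323 on days 4, 6 and 8, a change of -2.97. Its other probe, which spans an exon junction between chr2:79153985 and chr2:79155115 (mm9), was at 36.0 on the control array and dim on all OSKM-CMP arrays, at least 3.58-fold lower at day 8. The sequence is shown because it crosses a junction and so reads spliced RNA:
Itga4 junction probe: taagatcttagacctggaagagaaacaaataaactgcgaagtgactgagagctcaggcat
Itgb7 (probe at chr15:102046450-102046509, mm9) was dim on the control array, with a measured signal of 3.04, and stood at 298 at day 4, 144 at day 6 and 150 at day 8. It was at least 30.2-fold higher at day 4 and at least 15.2-fold higher at day 8. With normexp and quantile normalization the change at day 8 was smaller, 1.58 in place of 3.93 on the log2 scale. Its other alpha partner, Itgae, was dim throughout. Itga9, which binds tenascin and Vcam1 in pairs with Itgb1, was at 818, 279, 383 and 443: 2.93-fold lower at day 4 and within 2-fold at day 8.

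Of the leukocyte chains, Itgad alone was called against the control, and at day 4 only. Itgb2, their common beta chain, was at 56.1, 55.6, 75.9 and 69.4, and Itgal and Itgam stayed within 2-fold of the control on each day. Itgad was well above background at day 4 alone, at 40.9, at least 4.15-fold over the control and at least 3.95-fold over day 8. Of 12 leukocyte markers, 9 were well above background on at least 1 array. At day 8, 3 of these were higher and none lower (11.7% and 9.29% over all genes), with a median change of 0.12. Their summed signal went from 1498 in the control to 3800 at day 8, and most of this rise was Ly6g. Csf1r (-0.73 ± 0.14) and Emr1 (-0.83 ± 0.31) were below the control by less than 2-fold, and Tyrobp was dim from day 4 on. Ptprc, the pan-leukocyte antigen CD45, was at 15.2, dim at day 4, 17.3 at day 6 and 15.4 at day 8, whereas Ly6g was at 396 and 2642 on the control and day 8 arrays. Their part in the Itgb7 value was not tested.

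Itgam showed how far a level depends on its probe. Its 3 probes gave control signals of 22.4, 48.9 and 14119 and changes at day 8 of 0.13, -0.07 and -0.37. The sequences are shown because the bright probe starts with a run of CA repeats, in capitals, of which the first 30 bases are printed:
Itgam probe at chr7:135212140-135212199 (mm9): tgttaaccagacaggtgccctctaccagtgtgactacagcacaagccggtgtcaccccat
Itgam probe at chr7:135260275-135260334 (mm9): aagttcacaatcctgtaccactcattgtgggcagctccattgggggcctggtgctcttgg
Itgam bright probe at chr7:135261755-135261814 (mm9): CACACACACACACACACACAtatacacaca
On the array, 76 probes held at least 10 such repeats in a row (CA, AC, TG or GT). All 76 passed the background flag in the control, compared with 56.6% of all probes, and their median signal was 12068, compared with 243 for all probes that passed. Whether the bright probe read Itgam RNA was not tested.

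Itgb1, the beta chain shared by most of these receptors, was lower on every OSKM-CMP array: 5716 in the control and 2758, 2307 and 2243 on days 4, 6 and 8, or 2.55-fold lower at day 8 (-1.35 ± 0.14). Its probes gave nearly the same change, -1.34 and -1.36, although they read different parts of the transcript. They are shown for this reason, the first in the part for the extracellular chain and the second across the last coding exons, for the tail that talin and kindlin bind:
Itgb1 probe at chr8:131246349-131246408 (mm9): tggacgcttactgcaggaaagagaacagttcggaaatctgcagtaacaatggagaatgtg
Itgb1 probe spanning a junction between chr8:131250081 and chr8:131255976 (mm9): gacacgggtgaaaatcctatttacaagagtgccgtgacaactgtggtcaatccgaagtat
Itga1, Itga4, Itga5 and Itga11 were lower together with Itgb1 at day 8, whereas Itga6 and Itga10 were higher against a lower Itgb1. Of the 24 known pairs, both chains were well above background for 19 in the control and 21, 19 and 20 on days 4, 6 and 8. The array does not show which chains were paired at the cell surface.

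**Figure D4:**
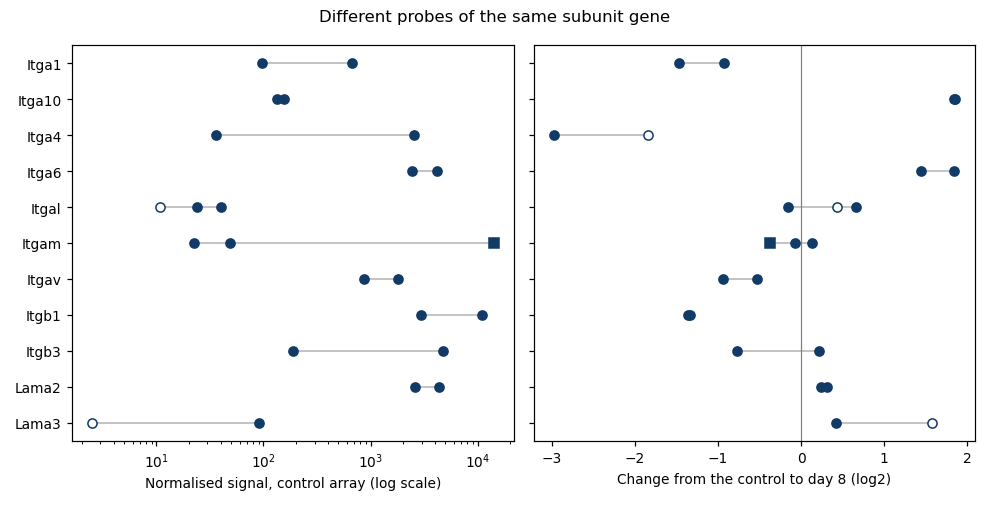
Subunit genes with more than 1 kept probe. The left panel gives the normalised signal of each probe on the control array (log axis) and the right panel its change from the control to day 8 (log2), with a line joining the probes of a gene, open symbols for dim values and a square for the probe with CA repeats. The probes of Itgb1 and Itga10 lie within 0.03 of each other, and those of Itga4, Itgb3 and Lama3 lie far apart.

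Among the laminin alpha chains, which carry the receptor binding sites, Lama4 and Lama5 moved in opposite directions. Lama4, the chain of vessel walls, muscle and fat (probe at chr10:38825794-38825853, mm9), had a normalised signal of 13550 in the control and 5970, 5515 and 4769 on days 4, 6 and 8, which was 2.84-fold lower (-1.51 ± 0.20). Lama5, a chain of most epithelial and mature endothelial basement membranes (probe at chr2:179911079-179911138, mm9), was at 1776, 5507, 4923 and 5247, or 2.96-fold higher at day 8 (1.56 ± 0.20). Both had reached at least 2-fold at day 4 and kept it.

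Lama2, the chain of muscle, was within 2-fold of the control throughout, at 3380, 2003, 4004 and 4085, lowest at day 4 and 2.04-fold higher at day 8 than then. Lama1, an embryonic chain, was at 40.5, 60.3, 31.9 and 20.05. It was just past 2-fold lower at day 8 (-1.01 ± 0.30), by less than its error, and within 2-fold with normexp and quantile normalization (-0.34). It was 3.01-fold lower at day 8 than at day 4. Lama3, the chain of laminin-332, differed by probe: one gave 91.1, 139, 121 and 121, and the other was dim on the control array and then at 53.3, 51.6 and 29.4, at least 2.98-fold higher at day 8. Their mean was 2.88-fold higher at day 4 and 1.99-fold higher at day 8, counting the dim value at its bound.

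The common beta and gamma chains moved less than 2-fold. Lamb1 was at 47586, 31336, 29037 and 26498 (-0.84 ± 0.20 at day 8), Lamb2, which replaces it in mature basement membranes, was at 5988, 3761, 4911 and 5715 (-0.07 ± 0.20), and Lamc1, found in most laminins, was at 26964, 15843, 14533 and 15253 (-0.82 ± 0.20). Lamb3 and Lamc3 gave larger values at day 8. Lamb3, the beta chain of laminin-332, was at 98.5, 82.2, 160 and 249, so that it was within 2-fold until day 6 and 2.52-fold higher at day 8 (1.33 ± 0.21), or 0.84, within 2-fold, with normexp and quantile normalization. Lamc3 (probe at chr2:31801996-31802055, mm9), a gamma chain of few tissues, was dim on the control array and at 27.6, 58.6 and 46.1 afterwards, at least 4.49-fold higher at day 8, a call that was lost with normexp and quantile normalization (0.50). All 3 chains were well above background on every OSKM-CMP array for each of the 10 laminin trimers examined, and on the control array for 9 of them. In no trimer were all 3 chains called in the same direction at day 8.

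The OSKM-CMP arrays were also set against each other. From day 4 to day 8, 1 of 24 measured integrin genes was at least 2-fold higher (Itga1) and 2 were lower (Itga3 and Itgad). Of the 11 laminin genes, 2 were higher (Lama2 and Lamb3) and 1 was lower (Lama1). Over all genes the shares were 3.45% higher and 2.69% lower.

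The genes that work with integrins and laminins were described from 5 lists. Of 34 measured integrin activators and adhesion adaptors, none was higher at day 8 and 11 were lower, with a median of -0.71. Among these were Actn1, an actin crosslinker (-2.39 ± 0.20), Fermt2, the kindlin that activates beta chains (-2.07 ± 0.14), Parvb, an adaptor of integrin-linked kinase (-2.04 ± 0.34), and Lims2, another of its partners (-1.98 ± 0.20). Fermt1, Fermt3 and Parvg were dim on all 4 arrays. Among 15 tetraspanins and other lateral partners, none was higher and 4 were lower, with a median of -0.37: Plaur, the urokinase receptor (-2.10 ± 0.20), Thy1, a surface glycoprotein (-1.78 ± 0.20), Tspan4 (-1.57 ± 0.20) and Cd151, a tetraspanin bound to laminin-binding integrins (-1.07 ± 0.14).

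Of 19 measured basement membrane partners, 2 were higher and 3 were lower at day 8, with a median of -0.42. Col4a1 and Col4a2, the common type IV collagen chains, were 4.04-fold and 4.66-fold lower, Ntn4, a netrin that binds laminin, was at -1.42 ± 0.22, and Col18a1, the source of endostatin, was at 1.32 ± 0.14. Perlecan (Hspg2) had the same signal on both arrays within its error (0.00 ± 0.14). Of 27 other integrin ligands, 3 were higher and 10 lower, with a median of -0.38. Igfbp2, a growth factor binding protein with an RGD sequence, was 27.3-fold lower, Ctgf and Cyr61, matricellular ligands, were 14.8-fold and 11.1-fold lower, and Thbs2, a thrombospondin, was 8.57-fold higher, while Fn1 stayed at -0.14 ± 0.20. Of 22 other laminin and collagen receptors, 2 were higher and 3 lower, with a median of -0.35. Sgca, a sarcoglycan of the dystrophin complex, was 4.90-fold higher, counting dim probes at their bound, Bcam, a Lama5 receptor, was at -1.77 ± 0.20 and Sdc3, a syndecan, at -1.66 ± 0.20, while dystroglycan (Dag1) stayed at -0.39 ± 0.20. All of these shares stand beside 11.7% higher and 9.29% lower over all genes.

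**Figure D5:**
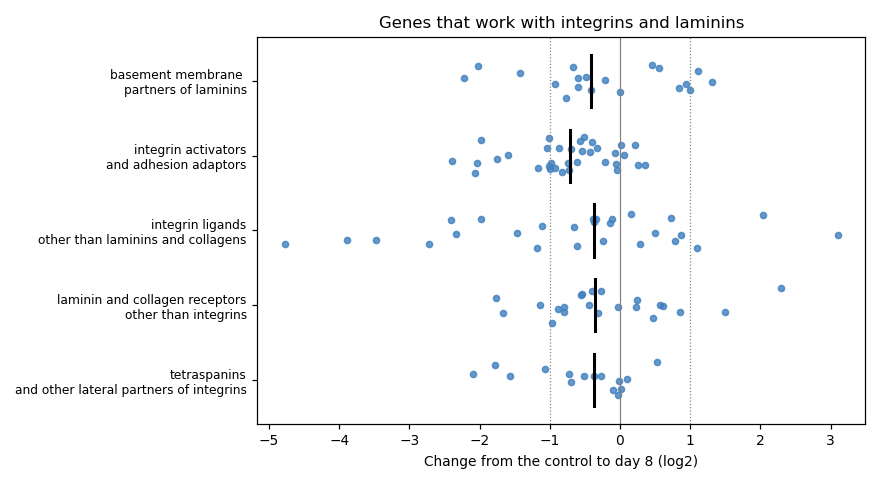
Change from the control to day 8 (log2) of each measured gene of the 5 partner lists, with a black bar at the median of each list and dotted lines at 2-fold. Points are spread vertically for sight alone. The adaptors have the lowest median, -0.71, and no gene to the right of 2-fold.

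Markers of other cell types were also followed. Their counts at day 8 stand beside 11.7% higher and 9.29% lower over all genes. The summed normalised signal of 6 measured smooth muscle and pericyte markers was 244607 in the control and 28023, 20732 and 20052 on days 4, 6 and 8, with Acta2, Tagln and Cnn1 lower and Rgs5 higher, and Myh11 dim on all arrays. The control sum was mostly Acta2 (112224) and Tagln (117643). Pdgfrb (-0.36 ± 0.20) and Cspg4 (0.57 ± 0.20) stayed within 2-fold at day 8, and Cspg4 was higher at day 4 (1.13). The sum for 8 endothelial markers was 826, 479, 503 and 460, with 5 lower and none higher at day 8 and Cdh5, Emcn and Tie1 dim from day 4 on. Kdr (-0.27 ± 0.11), Pecam1 (0.10 ± 0.16) and Vwf (0.78 ± 0.25) stayed within 2-fold at day 8. Kdr was the largest part of this sum (401 and 333 in the control and at day 8). The sum for 8 adipocyte markers was 1998, 18701, 63846 and 137018, with 7 higher at day 8, and Adipoq, Plin1, Cfd and Lep dim on the control array. That of 6 measured cardiomyocyte markers was 4778, 1980, 2750 and 1720, with Actn2 dim on all arrays. This sum was mostly Tnnt2 (4714 and 1554 in the control and at day 8), whereas 3 of the 6 were higher and 1 lower at day 8, with a median change of 1.24. The part of such cells in the values of Itga11, Itga7, Itga8, Lama2 and Lama4 was not tested.

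RefSeq promoters (GRCm38.p6) were at hand for 23 of the subunit genes, as 26 sequences, and their 250 bases before the start were searched on both strands. A GC box (GGGCGG) lay in 9 of 26 and in 32.7% of all 32851 promoters. A TEAD site (GGAATG) lay in 3 (Itga10, Itgb1 and Lamb3) and in 12.6% of all, a KLF4 site (GGGTGTGG) in 1 (Itga4) and in 3.20%, and a CArG box in 2 (Itgb6 and Lama2) and in 1.47%. An E-box (CACGTG) and the octamer (ATGCAAAT) lay in none of the 26, and in 6.02% and 1.60% of all promoters. GC boxes can overlap other GC-rich sites, and a match is a description of letters, not of binding. The median number of CpG was 10 in the subunit promoters and 6 in all. The promoters of the collagen receptor chains that moved most in each direction and of Lama5 are shown, with a TEAD site (as CATTCC on the other strand) or GC boxes in capitals:
Itga11 promoter, chr9:62677605-62677854, plus strand: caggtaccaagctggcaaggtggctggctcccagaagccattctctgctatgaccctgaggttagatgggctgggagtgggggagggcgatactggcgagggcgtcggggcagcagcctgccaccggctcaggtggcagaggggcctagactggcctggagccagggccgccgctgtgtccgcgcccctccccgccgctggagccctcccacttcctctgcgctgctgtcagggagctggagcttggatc
Itga10 promoter, chr3:96645334-96645583, plus strand: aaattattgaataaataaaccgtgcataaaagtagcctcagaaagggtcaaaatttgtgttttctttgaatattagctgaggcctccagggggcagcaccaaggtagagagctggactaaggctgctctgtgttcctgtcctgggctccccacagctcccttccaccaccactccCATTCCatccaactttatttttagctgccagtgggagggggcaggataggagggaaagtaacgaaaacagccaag
Lama5 promoter, chr2:180225860-180226109, minus strand: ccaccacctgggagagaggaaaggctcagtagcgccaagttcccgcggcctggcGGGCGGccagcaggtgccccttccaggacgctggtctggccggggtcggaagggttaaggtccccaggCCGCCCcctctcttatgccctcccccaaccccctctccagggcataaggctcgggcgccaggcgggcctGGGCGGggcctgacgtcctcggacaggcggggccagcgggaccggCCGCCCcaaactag
That of Itga11 held none of the letters searched and 12 CpG, that of Itga10 held 1 TEAD site and 2 CpG, and that of Lama5 held 4 GC boxes and 19 CpG.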

How the data were processed

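RNA of 4 samples, labelled with Cy3 (250 ng each), was read on one-colour Agilent arrays. Per the file headers, the authors extracted spot intensity with Feature Extraction 10.7.3.1 (9.5.3 in the submitters' processing notes), as a background-subtracted processed signal with an error model set to 10% multiplicative error. The deposited series table holds the log2 of the same signal from GeneSpring GX11, shifted by a constant per array, with column medians of -4.22, -4.08, -4.09 and -3.96 from the control to day 8, so its scale, centring and direction are known. Value columns of other series numbered 0.

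From the spots, log2 values (control and outlier spots left out) were averaged per probe, less the array's own 75th percentile. A probe was kept where at least 1 array showed it well above background (35541 of 55681, and 24539 of 34844 gene names), and kept probes were averaged into genes, with dim probes at the bound. Gene names are those of the array files and probe positions are on mm9; exon or UTR annotation of that build was not used here. The median error of a gene's change to day 8 was 0.20, and the number of arrays limits the precision. Values on each array are given for members at least 2-fold from the control on any day and for their partner chains; from each partner list, up to 4 genes with the largest change at day 8 were named, and Hspg2, Fn1 and Dag1, like the marker genes named, were added after their values were seen. A member and a partner gene are counted but not reported here. Members and lists were chosen with earlier results of these data known. The pipeline was tested on simulated data. Alternatives were other normalizations and background corrections, filters, probe rules and folds. Python 3.11.15, numpy 2.4.6, pandas 2.3.3, matplotlib 3.10.9, R 4.3.3 and limma 3.58.1 were used.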

Additional observations from a re-analysis of the deposited data

How the results depend on the processing

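No paired analysis was possible because the labels give no replicate numbers and no condition was repeated. Leaving out a replicate could not be done for the same reason. The number of integrin genes at least 2-fold higher at day 8 (5) stayed within 1.5 times under every alternative run. Normexp correction with quantile normalization gave an integrin median of -0.37 in place of -0.71, 1 laminin gene higher in place of 3, 1 lower in place of 2, and a laminin median of 0.14 in place of -0.07. Quantile normalization alone gave a laminin median of 0.12, so the sign of this median depends on the normalization. Scaling by the array median gave all genes a median change of -0.28 in place of -0.01, and gave 11 integrin genes lower in place of 7, an integrin median of -0.97, 4 laminin genes lower and a laminin median of -0.33. Asking for a passed background flag on all 4 arrays, the laminin median was -0.40. At 1.5-fold, 12 integrin and 5 laminin genes were lower, and at 3-fold, 3 integrin genes were lower, 1 laminin gene was higher and 0 were lower. The folds change the count by construction, and the array median as the scale shifts the change of every gene by the same amount. The cause of the other moves was not tested. For the named genes, 165 values were recomputed: 104 moved by no more than the technical SD of 0.118, 61 moved by more, and 0 changed sign. Of the 104, 21 came from the authors' values, which are the same signal shifted by a constant per array. Another 21 came from dropping the filter on dim probes, which had removed no probe of these genes. Of the 61, 21 came from the array median as the scale. The 165 values are thus not independent checks. Under normexp with quantile normalization, 2-fold calls at day 8 were lost for Itgb8 (-0.89), Lamc3 (0.50), Itga2b (0.39), Lamb3 (0.84), Itga1 (-0.94) and Lama1 (-0.34), and kept calls were smaller for Itgb7 (1.58) and Itga4 (-1.68 in place of -2.41). The array median as the scale put Itga7 (-1.14) and Itga9 (-1.15) past 2-fold, and dim values as measured did so for Lama3 (1.98). Dim signals limit Itgb7, Itgb8, Lamc3, Itgad and a probe each of Itga4 and Lama3 to bounds.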

Other observations

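Subunits that the array names in another way were looked up after the rule had been applied. Itgb2l, an integrin beta 2-like gene, had 3 probes, and an expressed sequence described as similar to integrin alpha 4 (AA060545) had 1. All 4 of these probes were dim on all 4 arrays, with normalised signals between 2.01 and 8.76.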
